A study of Rattus norvegicus with 3 samples.

Results

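The Slc25 genes encode the mitochondrial carrier family. They were taken as every gene whose symbol in the platform's probe table is Slc25a followed by a number and that has a probe set with no other symbol. The rule found 37 of 14506 genes, measured by 42 probe sets. For each gene the probe set with the highest mean was kept. Of the 37 genes, 33 passed a filter on dim genes (a mean level of at least 5.34 on the log2 scale, the 25th percentile of all genes), as did 10879 genes in all.

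RNA came from tibialis anterior muscle of male Wistar rats, 11 weeks of age, fed a fat-rich diet (45% of energy from fat) for 3 weeks. After 2 weeks of the diet, 150 µg of plasmid DNA was brought into the muscle by electroporation, and the muscle was taken 8 days later. The groups were Plin5 (OXPAT, in pcDNA3.1 behind the CMV promoter), Plin2 (ADRP, in pENTR behind the CMV promoter) and empty vector (pcDNA3.1 with no insert), with 1 array each. The RNA of 6 rats was pooled on every array, so no spread between animals could be measured and no difference below was tested. The Plin2 plasmid had another backbone than the empty vector, so insert and backbone cannot be told apart on that array. The CMV promoter is active in most cell types, and the labels do not say which cells of the muscle took up plasmid. Electroporation and the fat-rich diet were common to all 3 groups. Plin5 and Plin2 code for proteins that coat lipid droplets, and the design set each of them against the empty vector in muscle exposed to dietary fat.

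The values are log2 expression levels after RMA, a method that normalizes arrays to a common distribution and summarises the probes of a set. The introduced genes were highest on their own arrays. Plin5 had levels of 8.30 on the Plin5 array, 6.79 on the Plin2 array and 7.52 on the empty vector array. Plin2 had levels of 10.08, 10.71 and 9.99 on these arrays in the same order. All 13 measured skeletal muscle markers passed the dim filter on a list that includes Acta1, Ckm and Des. Of 14 measured genes typical of other tissues, such as liver and testis, 9 were dim. Macrophage markers differed between the arrays: the summed linear level of the 15 measured markers was 10411 on the Plin5 array, 31843 on the Plin2 array and 14671 on the empty vector array, and none of the 15 was dim. Summed skeletal muscle markers stood at 158951, 138452 and 157132 on these arrays. The 10 slow fibre markers summed to 25300, 15742 and 22029, with medians of 0.29 on the Plin5 array and −0.46 on the Plin2 array against the empty vector in log2 difference. Markers of T, NK and B cells had medians of −0.12 and 1.01 (14 genes), and tendon markers −1.03 and −0.23 (7 genes). In a whole muscle, fewer cells of a type and less RNA per cell cannot be told apart, and the part of such shifts in the carrier values was not tested.

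Mitochondrial carriers are small proteins of the inner mitochondrial membrane that exchange or import nucleotides, phosphate, carboxylates, amino acids, acylcarnitines, cofactors and iron. They link oxidative phosphorylation and fatty acid oxidation inside mitochondria with the cytosol. Muscle relies on the exchange of ADP for ATP, on phosphate import and on the malate-aspartate shuttle. Carriers are made in the cytosol and reach the inner membrane through the TOM and TIM22 import complexes.

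On the Plin5 array the carriers lay close to the empty vector. None of the 33 was higher or lower by at least 1.5-fold, against 0.221% of all 10879 genes higher and 1.42% lower. At 1.2-fold none was higher, against 1.52% of all genes, and 3 were lower (9.09%), against 5.71% of all genes. These 3 were Slc25a25 (−0.43), Slc25a37 (−0.29) and Slc25a24 (−0.27), all differences in log2 level. Slc25a24 was lower by its brighter probe set only, and its other set was equal on the Plin5 and empty vector arrays. Altogether 13 carriers lay above the empty vector, 8 below and 12 were exactly equal, with a median difference of 0.00. Over all 10879 genes, 2812 lay above, 3699 below and 4368 were equal. The median of all genes was 0.00 as well.

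On the Plin2 array the carriers spread in both directions. By at least 1.5-fold, 4 of 33 were lower (12.1%) and 2 were higher (6.06%), against 5.8% (lower) and 8.84% (higher) of all genes. By at least 1.2-fold, 10 were lower (30.3%) and the same 2 were higher, against 15.5% (lower) and 19.4% (higher) of all genes. The lower carriers were Slc25a20, Slc25a42, Slc25a23 and Slc25a34, and the higher ones were Slc25a24 and Slc25a5. The family median was −0.05, against 0.00 for all genes, and counts of 4 and 2 are too small for the percentages to be read closely.

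**Figure D1:**
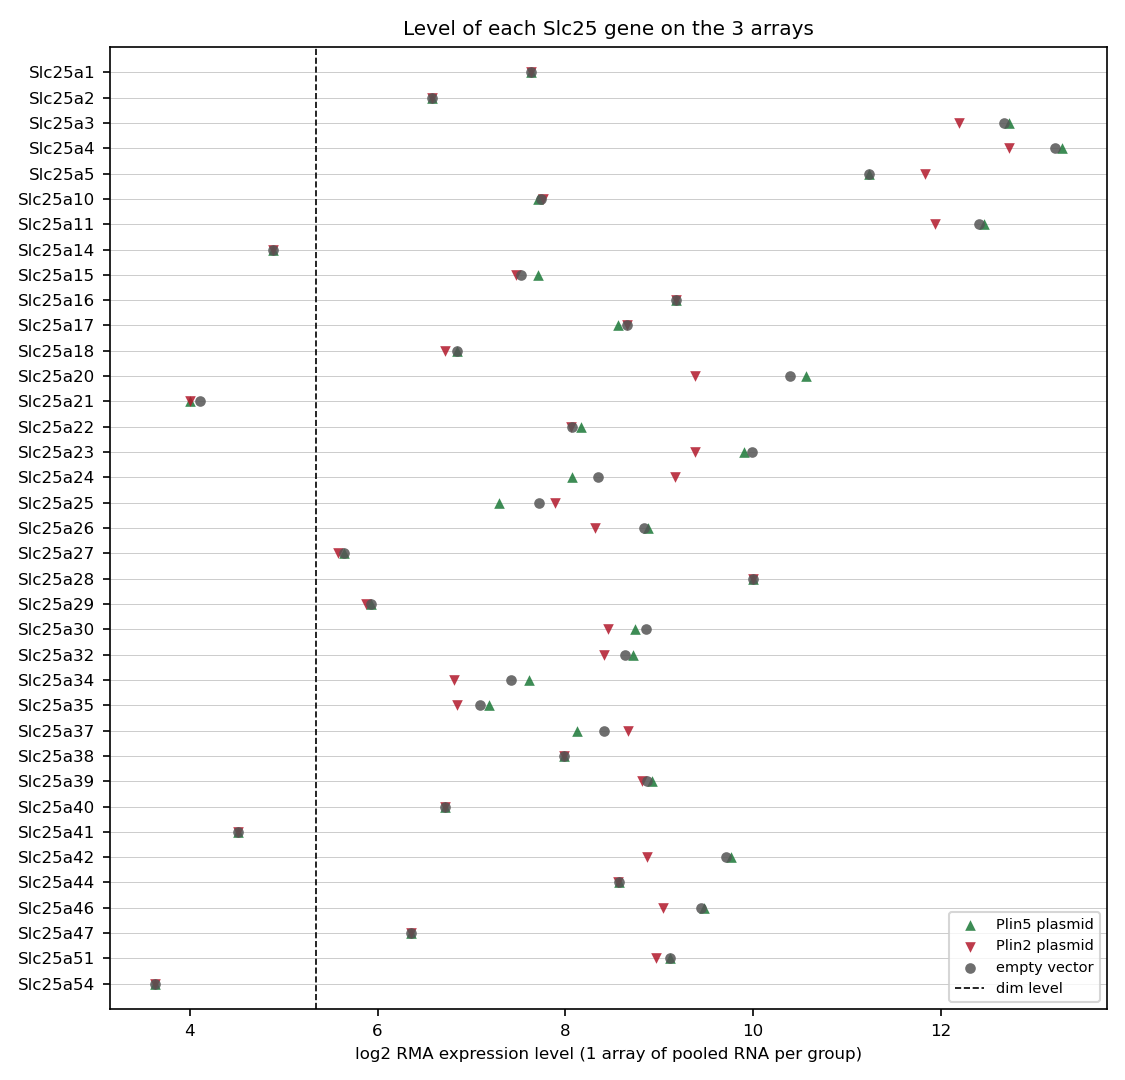
Log2 expression level (horizontal axis) of all 37 Slc25 genes (rows) on the Plin5 array (green triangles), the Plin2 array (red inverted triangles) and the empty vector array (grey circles), with the dim level of 5.34 as a dashed line. On most rows the 3 symbols lie together, and where one stands apart it is usually that of the Plin2 array, as for Slc25a20 and Slc25a24. Levels of different genes come from different probes and are not comparable with each other.

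The ADP/ATP carriers take ATP made by ATP synthase out of the mitochondrion in exchange for ADP. Slc25a4, the form of muscle and heart (Ant1), had levels of 13.29 on the Plin5 array, 12.72 on the Plin2 array and 13.21 on the empty vector array. Slc25a5, the form of many tissues and of dividing cells (Ant2), had levels of 11.23, 11.83 and 11.24 on these arrays. The Plin2 array was thus the lowest for Slc25a4 and the highest for Slc25a5, and the Plin5 and empty vector arrays were near each other for both genes. Against the empty vector, Slc25a4 differed by −0.49 and Slc25a5 by 0.60 (1.51-fold higher) on the Plin2 array. On the Plin5 array the differences were 0.07 for Slc25a4 and −0.0040 for Slc25a5. Removing the trend of the difference with level by loess left −0.31 for Slc25a4 on the Plin2 array and gave 0.70 for Slc25a5. Centring the arrays on their median gene gave 0.54 for Slc25a5, which is under 1.5-fold. The promoters of this pair are shown because the genes went opposite ways on the Plin2 array. Each runs 5′ to 3′ on the gene's strand, from 250 bases before to 50 bases after the start, as RefSeq gives it for assembly GRCr8 (Slc25a4 at chr16:52805271-52805570, Slc25a5 at chrX:120897366-120897665, both on the plus strand). Capitals mark CCGGAAG, the core of sites for ETS factors such as GABP, which is found in the Slc25a4 window and not in that of Slc25a5. It was searched after the expression values were seen, and was in 21.9% of carrier promoters and 8.75% of all promoters. Slc25a17 and Slc25a38 hold it too and were equal on the Plin2 and empty vector arrays. A match is not evidence of binding, and a link with these differences was not tested.
Slc25a4: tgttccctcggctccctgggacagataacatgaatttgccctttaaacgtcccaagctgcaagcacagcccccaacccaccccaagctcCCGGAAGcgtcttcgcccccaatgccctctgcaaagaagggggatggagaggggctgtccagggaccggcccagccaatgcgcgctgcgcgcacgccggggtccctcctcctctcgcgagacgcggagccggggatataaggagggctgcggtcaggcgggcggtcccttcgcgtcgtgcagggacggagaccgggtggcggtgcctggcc
Slc25a5: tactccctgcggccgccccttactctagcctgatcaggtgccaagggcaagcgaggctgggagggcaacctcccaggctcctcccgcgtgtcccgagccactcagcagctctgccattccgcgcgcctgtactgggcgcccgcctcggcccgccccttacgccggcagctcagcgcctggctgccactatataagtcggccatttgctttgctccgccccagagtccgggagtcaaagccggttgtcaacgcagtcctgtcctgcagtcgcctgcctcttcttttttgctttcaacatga

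Phosphate enters the matrix through Slc25a3, and the calcium-regulated carriers Slc25a23, Slc25a24 and Slc25a25 exchange ATP-Mg for phosphate and so set the nucleotide content of mitochondria. Slc25a3 had levels of 12.73 on the Plin5 array, 12.19 on the Plin2 array and 12.67 on the empty vector array. Its difference of −0.48 on the Plin2 array was near that of Slc25a4, which also serves ATP supply. Slc25a23 had levels of 9.90, 9.39 and 9.99 on these arrays, with the Plin2 array the lowest. Slc25a24 had levels of 8.08, 9.17 and 8.35, with the Plin2 array the highest and the Plin5 array the lowest. Against the empty vector on the Plin2 array, Slc25a23 was 1.52-fold lower (−0.61) and Slc25a24 was 1.77-fold higher (0.82).

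Each of these paralogs has a second probe set. For Slc25a23 it gave a larger difference on the Plin2 array, −1.19, and 0.07 on the Plin5 array, against −0.09 by the first. For Slc25a24 the second set gave 0.81 on the Plin2 array, close to the first, but was equal on the Plin5 and empty vector arrays, where the first differed by −0.27. The direction on the Plin2 array was therefore the same by either probe set of each gene, and that on the Plin5 array was not. After loess the Slc25a23 difference on the Plin2 array was −0.58, just under 1.5-fold. Slc25a25 had levels of 7.29 on the Plin5 array, 7.89 on the Plin2 array and 7.72 on the empty vector array, differences of −0.43 and 0.17. Slc25a41, a relative without the calcium-binding region, was dim and equal on all 3 arrays (4.52).

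**Figure D2:**
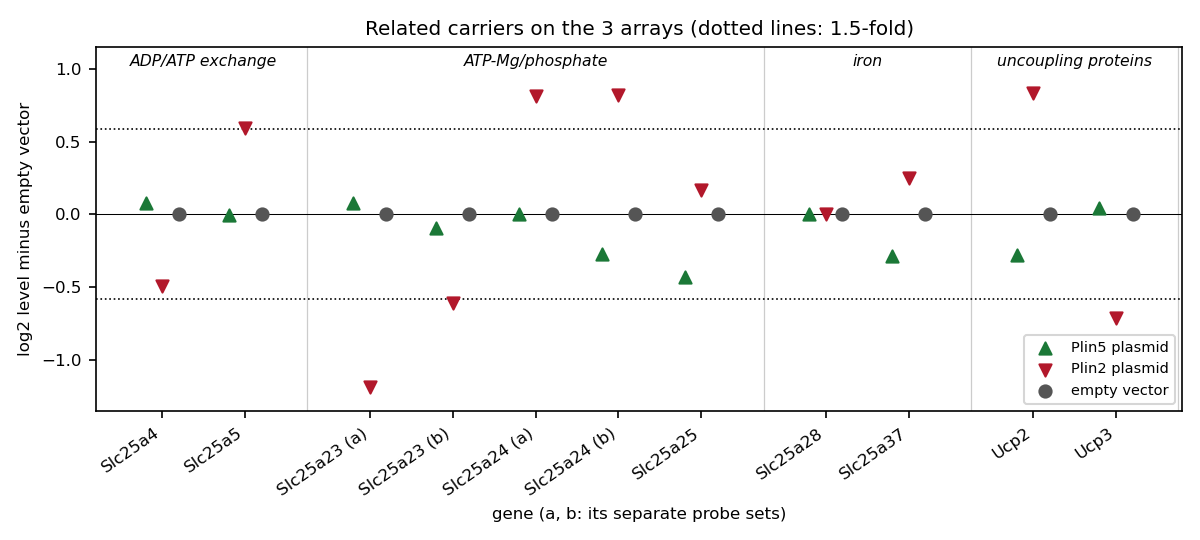
Log2 level minus that of the empty vector array (vertical axis) for related carriers, with 1 column per probe set: Plin5 array (green triangles), Plin2 array (red inverted triangles) and empty vector array (grey circles, 0 by construction). Within the ADP/ATP, ATP-Mg/phosphate and uncoupling protein groups genes lie on either side of the empty vector on the Plin2 array, for example Slc25a24 at 0.82 and Slc25a23 at −0.61.

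Slc25a20, the carnitine/acylcarnitine carrier, brings acylcarnitines into the matrix for β-oxidation. Its levels were 10.56 on the Plin5 array, 9.38 on the Plin2 array and 10.39 on the empty vector array. The Plin2 array stood well below the others, at −1.01 against the empty vector (2.01-fold lower), and the Plin5 array was slightly above it (0.17). Among all 10879 genes, 134 were as low or lower on the Plin2 array, Slc25a20 included. The value lay between −1.06 and −0.97 under every normalization and filter tried. The list of 19 measured genes of the carnitine shuttle and fatty acid oxidation, which does not hold Slc25a20, had medians of 0.19 on the Plin5 array and −0.69 on the Plin2 array, both against the empty vector. In it the muscle carnitine palmitoyltransferase Cpt1b differed by 0.09 and −0.65 on these arrays, the inner membrane form Cpt2 by 0.19 and −0.81, and the liver form Cpt1a by −0.17 and 0.57.

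Among cofactor carriers, Slc25a42, which imports coenzyme A, had levels of 9.77 on the Plin5 array, 8.87 on the Plin2 array and 9.72 on the empty vector array. It was 1.80-fold lower on the Plin2 array (−0.85) and near the empty vector on the Plin5 array (0.05). Slc25a26, the carrier of the methyl donor S-adenosylmethionine, had levels of 8.88, 8.32 and 8.84, a difference of −0.52 on the Plin2 array. Slc25a32, which brings folate and FAD into the matrix, had levels of 8.72, 8.41 and 8.63 (−0.23 on the Plin2 array). The NAD carrier Slc25a51 was lower by a small amount on the Plin2 array by each of its 3 probe sets (−0.15, −0.15 and −0.14). Slc25a16, linked to coenzyme A, was equal on all 3 arrays (9.18). Slc25a17, a peroxisomal carrier, was equal on the Plin2 and empty vector arrays (8.66) and stood at 8.56 on the Plin5 array. Of these 6 genes, none lay above the empty vector on the Plin2 array, 4 lay below and 2 were equal. Over all 10879 genes, 4168 lay above, 3448 below and 3263 were equal.

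Of the carboxylate carriers, only Slc25a11 differed by over 1.2-fold. This oxoglutarate/malate carrier of the malate-aspartate shuttle had levels of 12.46 on the Plin5 array, 11.94 on the Plin2 array and 12.41 on the empty vector array. The differences were 0.04 and −0.47 against the empty vector, and the second was −0.33 after loess. The enzymes of the malate-aspartate and glycerophosphate shuttles were lower on the Plin2 array in 6 of 6 cases (median −0.65), as were 3448 of all 10879 genes. By at least 1.2-fold, 5 of the 6 were lower, against 15.5% of all genes. The cytosolic enzymes were Got1 (−0.68), Mdh1 (−0.81) and Gpd1 (−0.83), and the mitochondrial ones Got2 (−0.18), Mdh2 (−0.38) and Gpd2 (−0.63). On the Plin5 array these 6 genes lay between −0.05 and 0.16. Slc25a1, the citrate carrier, was equal on all 3 arrays (7.64) by its brighter probe set, and its other set gave 0.15 on both the Plin5 and the Plin2 array. The dicarboxylate carrier Slc25a10 had levels of 7.71, 7.77 and 7.74 on the Plin5, Plin2 and empty vector arrays. Slc25a21, the oxodicarboxylate carrier, was dim on every array, with 4.0018 on the Plin5 array, 4.0018 on the Plin2 array and 4.11 on the empty vector array.

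The measured carriers of amino acids and glutathione differed little between the arrays. The aspartate/glutamate carriers Slc25a12 and Slc25a13 had no probe set under the rule and were not analysed. On the Plin2 array none of the 9 measured genes differed from the empty vector by 1.2-fold, and their differences ran from −0.13 to 0.00. Of the other 24 carriers, 10 were lower and 2 higher by that amount on the same array, with a range from −1.01 to 0.82. The shares of all genes were 15.5% lower and 19.4% higher. The 9 genes had mean levels from 5.92 (Slc25a29) to 8.87 (Slc25a39), against 5.62 (Slc25a27) to 13.08 (Slc25a4) for the others. Slc25a29, Slc25a2, Slc25a40 and Slc25a18 lay below the testis gene Prm1 (7.00), the brightest of the 14 measured genes of other tissues. Slc25a27 (5.62) and Slc25a47 (6.35), among the other carriers, lay below it too. Levels of different genes come from different probes, so such a ranking does not show which carriers were expressed. The 3 carriers with mean levels from 9.68 to 10.49 had a median of −0.61 on the Plin2 array, and the 4 brighter ones −0.48. The medians of all genes at these levels were 0.00 and −0.08 in the same order. Slc25a34 (7.28) and Slc25a24 (8.53), within the range of the 9, differed by over 1.5-fold on that array. This division was made after the values were seen, and neither it nor the part of level in it was tested. The ornithine carrier Slc25a15 had levels of 7.71 on the Plin5 array, 7.47 on the Plin2 array and 7.53 on the empty vector array, and its 0.18 on the Plin5 array was the highest value of the group. The glutamate carriers Slc25a18 (−0.13) and Slc25a22 (−0.01) differed little on the Plin2 array. The same held for Slc25a29 (−0.05), a carrier of basic amino acids, Slc25a44 (−0.01), an importer of branched-chain amino acids, and Slc25a39 (−0.06), which imports glutathione. Slc25a38, which supplies glycine for heme synthesis, Slc25a40, the paralog of Slc25a39, and Slc25a2 were equal on all 3 arrays (7.99, 6.71 and 6.58).

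**Figure D3:**
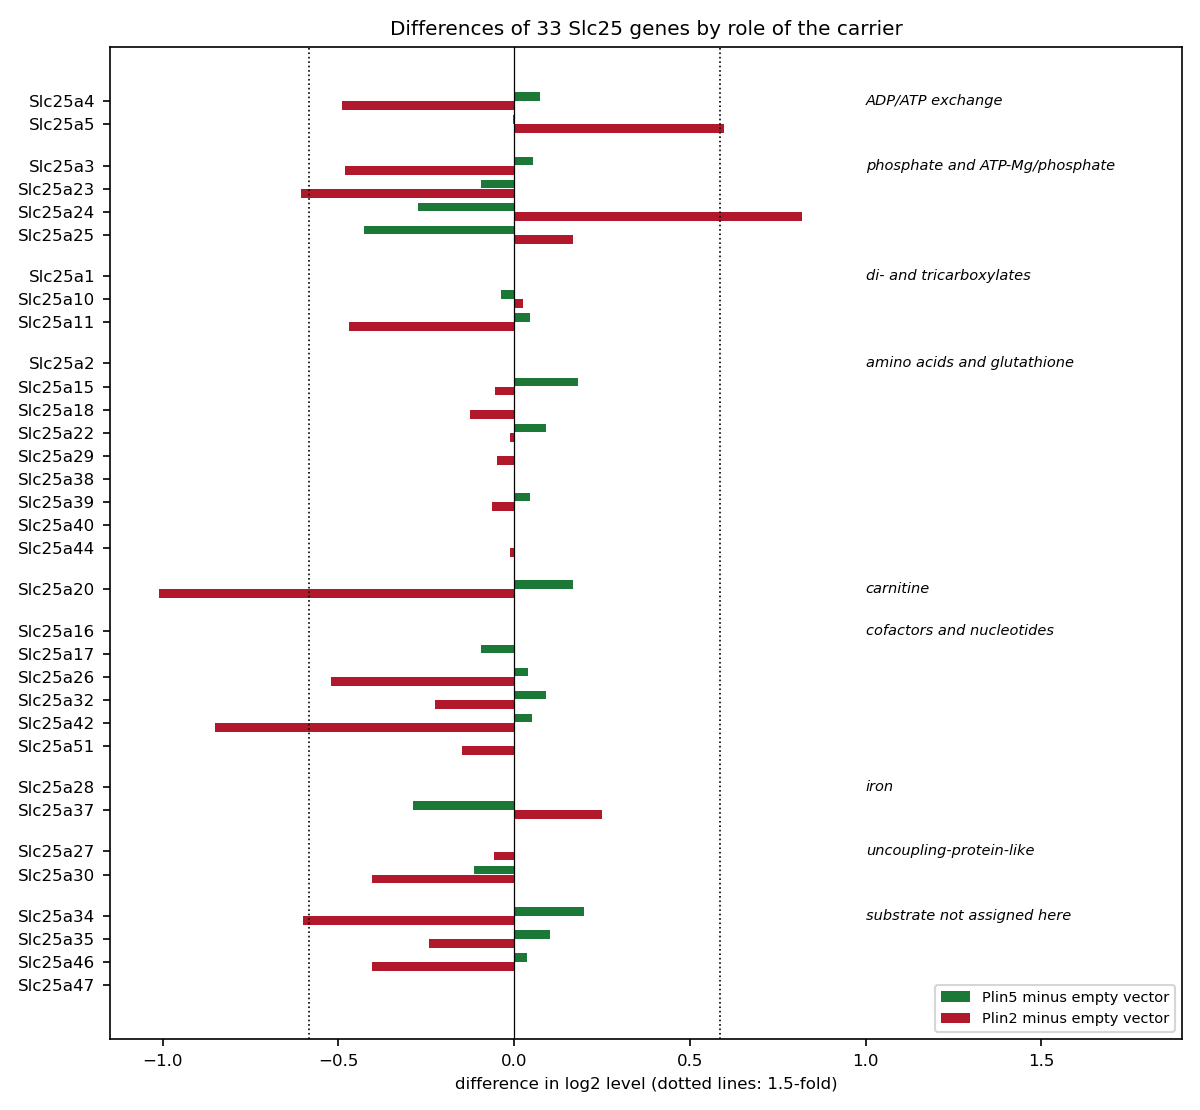
Difference in log2 level (horizontal axis) of the 33 Slc25 genes past the dim filter, ordered by role: Plin5 minus empty vector (green bars) and Plin2 minus empty vector (red bars), with dotted lines at 1.5-fold. Red bars reach from −1.01 (Slc25a20) to 0.82 (Slc25a24), while those of the amino acid and glutathione carriers stay within 0.13 of 0; green bars reach from −0.43 (Slc25a25) to 0.20 (Slc25a34).

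The iron importers differed from each other. Slc25a37 (mitoferrin 1), which is prominent in erythroid cells, had levels of 8.12 on the Plin5 array, 8.66 on the Plin2 array and 8.41 on the empty vector array. Slc25a28 (mitoferrin 2), the form of other tissues, was equal on all 3 arrays (9.9996). Slc25a37 thus stood at −0.29 on the Plin5 array and 0.25 on the Plin2 array. Slc25a24, Slc25a25 and Slc25a37 were the 3 carriers below the empty vector by 1.2-fold on the Plin5 array and lay above it on the Plin2 array. Slc25a24 was below by its brighter probe set only, and its other set was equal on the Plin5 and empty vector arrays (7.90). The medians of the macrophage markers were −0.58 and 1.06 on these arrays, and the part of macrophage RNA in these 3 carriers was not tested.

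Carriers related to uncoupling proteins are grouped with them by sequence. Slc25a30 had levels of 8.74 on the Plin5 array, 8.45 on the Plin2 array and 8.86 on the empty vector array, a difference of −0.41 on the Plin2 array. Slc25a27 (also called Ucp4) had levels of 5.64, 5.58 and 5.64, the nearest carrier above the dim level, and Slc25a14 (Ucp5), the nearest below it, was equal on all 3 arrays at 4.88. The uncoupling proteins themselves belong to the same protein family under other symbols. Ucp3, the muscle form, had levels of 11.02, 10.26 and 10.98 on the Plin5, Plin2 and empty vector arrays, and Ucp2, which is prominent in immune cells, had 10.62, 11.73 and 10.90. On the Plin2 array they differed by −0.71 (Ucp3) and 0.83 (Ucp2). Ucp1 was dim and equal on all 3 arrays (4.31). Of the carrier-like outer membrane proteins, Mtch1 differed by 0.10 and Mtch2 by −0.39 on the Plin2 array.

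Carriers to which no substrate was assigned here held 1 gene past 1.5-fold. Slc25a34 had levels of 7.62 on the Plin5 array, 6.82 on the Plin2 array and 7.42 on the empty vector array. It was 1.52-fold lower on the Plin2 array (−0.60) and had the highest difference of any carrier on the Plin5 array (0.20). Slc25a35 had levels of 7.19, 6.85 and 7.09, or 0.10 and −0.24 against the empty vector. Slc25a46, an outer membrane protein tied to mitochondrial shape, had levels of 9.48, 9.04 and 9.45 (−0.40 on the Plin2 array). Slc25a47 (6.35) and the dim Slc25a54 (3.63) were equal on all 3 arrays.

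RefSeq promoters were at hand for 32 of the 37 carriers, with a median G and C content of 60.3%, against 51.7% over all 33469 promoters in the table. Letters were searched on both strands. AAGGTCA, a site that binds ERR family receptors, was in 1 carrier promoter (3.12%), against 4.61% of all. Its longer form TCAAGGTCA was in 0 of 32, against 0.433% of all, and a direct repeat of AGGTCA with 1 base between the copies, the type bound by PPAR with RXR, in 0, against 0.0538%. CACGTG, the E-box, was in 2 (6.25%), against 6.42%. CCGGAAG was in 7 (21.9%), against 8.75%: Slc25a3, Slc25a4, Slc25a14, Slc25a17, Slc25a20, Slc25a38 and Slc25a54. CGCATGCGC, from the site of NRF1, was in 0, against 1.52%, and TATAAA in 1, against 14.2%. The motif TCAAGGTCA contains AAGGTCA, and the last 3 motifs were added after the expression values were seen. Slc25a20 (chr8:118243323-118243622, plus strand) and Slc25a34 (chr5:159219843-159220142, minus strand) are shown because both were lower on the Plin2 array and each holds 1 match. Slc25a42 and Slc25a23, also lower by 1.5-fold on that array, held no match to any of these motifs. Of the other holders of CCGGAAG, Slc25a3 and Slc25a4 were lower on the Plin2 array. Slc25a14, Slc25a17, Slc25a38 and Slc25a54 were equal to the empty vector there. Capitals mark CCGGAAG, which starts 69 bases before the start of Slc25a20, and the reverse complement of AAGGTCA, which starts 152 bases before that of Slc25a34. A match is a run of letters and not evidence of binding.
Slc25a20: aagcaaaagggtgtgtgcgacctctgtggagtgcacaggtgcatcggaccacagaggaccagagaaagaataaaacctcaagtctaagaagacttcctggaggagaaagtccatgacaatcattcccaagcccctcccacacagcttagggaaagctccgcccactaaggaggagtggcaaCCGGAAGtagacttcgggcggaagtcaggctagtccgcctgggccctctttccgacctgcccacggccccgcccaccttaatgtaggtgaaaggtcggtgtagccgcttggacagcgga
Slc25a34: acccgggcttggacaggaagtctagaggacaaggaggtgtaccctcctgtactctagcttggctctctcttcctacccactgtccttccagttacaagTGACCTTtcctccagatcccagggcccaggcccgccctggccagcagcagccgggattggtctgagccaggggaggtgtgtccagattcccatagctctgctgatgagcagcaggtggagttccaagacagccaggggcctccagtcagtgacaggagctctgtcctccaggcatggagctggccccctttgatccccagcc

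Between the arrays with an introduced gene, 3 of 33 carriers were higher on the Plin5 array by at least 1.5-fold and 3 lower (9.09% each), against 7.19% of all genes higher and 11.3% lower. The higher ones were Slc25a20 (1.18, 2.26-fold), Slc25a42 (0.90, 1.87-fold) and Slc25a34 (0.80, 1.74-fold). The lower ones were Slc25a24 (−1.09), Slc25a5 (−0.60) and Slc25a25 (−0.59). At 1.2-fold, 12 carriers were higher (36.4%) and 4 lower (12.1%) on the Plin5 array, against 16.6% of all genes higher and 22% lower. The family median was 0.11, against 0.00 for all genes. After centring of the arrays on their median gene, 8 carriers were higher by 1.5-fold, among them Slc25a4 (0.66), Slc25a26 (0.65), Slc25a3 (0.63), Slc25a11 (0.61) and Slc25a23 (0.60), and 1 was lower, so these counts depend on the scaling. Over all 10879 genes the same centring gave 1012 higher and 1032 lower. Of the 6 carriers past 1.5-fold, Slc25a25 lay farther from the empty vector on the Plin5 array, and the other 5 on the Plin2 array.

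Lists of neighbouring genes, chosen with earlier results of these data known, were described in the same way. Genes of the machinery that imports carriers had medians of 0.01 on the Plin5 array and −0.13 on the Plin2 array against the empty vector (16 genes). On the Plin2 array 7 of the 16 were lower and 2 higher by 1.2-fold, against 15.5% (lower) and 19.4% (higher) of all genes. The lower ones were Tomm40l (−0.46), the small TIM chaperones Timm9 (−0.46), Timm10 (−0.32), Timm8a1 (−0.31) and Timm8b (−0.31), the carrier receptor Tomm70 (−0.37) and Tomm7 (−0.36). The higher ones were Tomm5 (0.47) and Timm10b (0.38), and Timm22, the channel of the carrier translocase, was equal. Other mitochondrial transporters had medians of 0.04 and −0.36 (19 genes). On the Plin2 array 10 of these were lower and 5 higher by 1.2-fold, against the same shares of all genes. The pyruvate carrier subunits Mpc1 and Mpc2 differed by 0.11 and 0.20 on the Plin5 array and by −0.86 and −0.93 on the Plin2 array. The channel Vdac1 of the outer membrane differed by −0.55 on the Plin2 array. The serine carrier Sfxn1 (0.72), Tspo (0.82) and the sodium/calcium exchanger Slc8b1 (0.88) were higher on that array, and Slc8b1 stood at −0.56 on the Plin5 array.

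The respiratory chain and ATP synthase subunits had medians of 0.09 on the Plin5 array and −0.54 on the Plin2 array, and 66 of 74 were lower by 1.2-fold on the Plin2 array. For the tricarboxylic acid cycle the medians were 0.12 and −0.57, and 17 of 19 genes were lower by that amount. The corresponding count for the carriers was 10 of 33, and over all genes it was 1682 of 10879 (15.5%). Across the lists, 5 genes were listed more than once. These were the succinate dehydrogenase subunits, on both lists above, and Mdh2, on the tricarboxylic acid cycle and shuttle lists. A list of 12 regulators (the PGC-1, ERR and PPAR genes with Perm1, Nrf1, Gabpa and Tfam) had medians of 0.09 and −0.48. On the Plin2 array 7 of the 12 were lower and 1 higher by 1.2-fold, against 15.5% (lower) and 19.4% (higher) of all genes. Ppargc1a differed by 0.27 on the Plin5 array and −0.76 on the Plin2 array, Esrra by 0.20 and −0.60, Perm1 by 0.41 and −1.97, and Ppara by 0.24 and −1.50. Members that went the other way were Pparg (−0.49 and 0.55) and Nrf1 (−0.02 and 0.14). The same empty vector array enters the Plin5 and the Plin2 differences, so they are given side by side only.

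**Figure D4:**
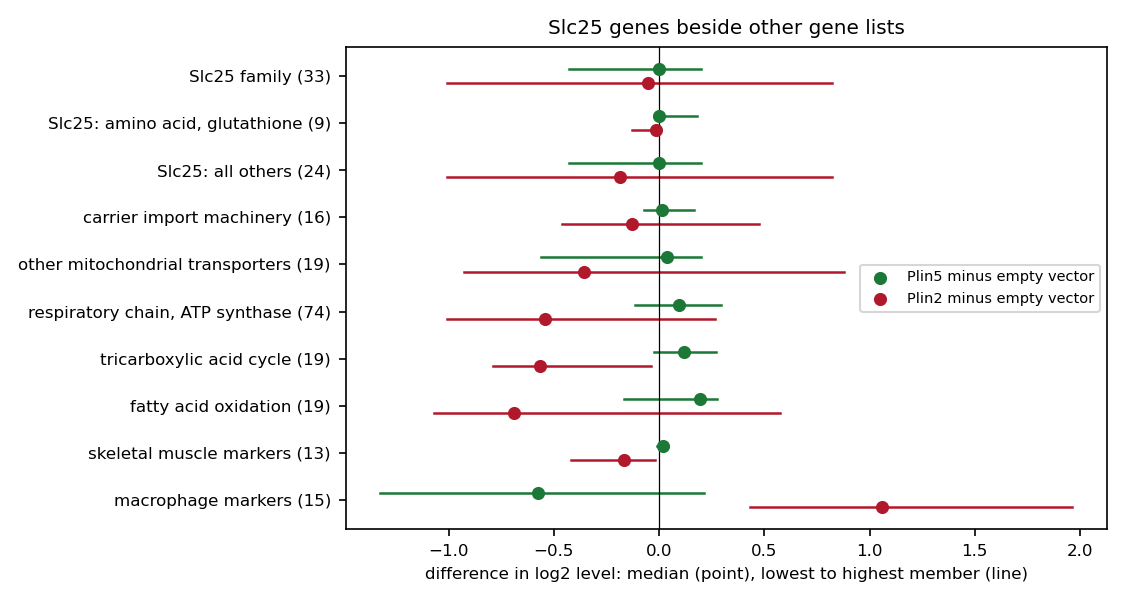
Median (points) and lowest to highest member (lines) of the difference in log2 level against the empty vector (horizontal axis), for the Slc25 family, its amino acid and glutathione carriers, all its other members and other lists, with the number of genes in brackets; Plin5 array green, Plin2 array red. The Plin2 median is −0.05 for the Slc25 family, −0.54 for the respiratory chain and ATP synthase and 1.06 for macrophage markers.

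Values that are exactly equal on several arrays can arise in the RMA summary of a probe set, though their source was not examined here. Equality does not show that a transcript had the same abundance. Of the 33 carriers, 7 were equal on all 3 arrays, as were 24.6% of all genes past the dim filter. When equal genes were left out, the median of the carriers was 0.04 on the Plin5 array (21 genes) and −0.15 on the Plin2 array (25 genes), against the empty vector. The same median over all genes was not computed. Among all genes that were not equal, 2812 lay above and 3699 below the empty vector on the Plin5 array. On the Plin2 array these counts were 4168 above and 3448 below.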

How the data were processed

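The deposited values were log2 expression levels made by the authors with RMA, per the submitters' processing notes, which give no version. The table does not name a log base; RMA returns log2, which was assumed. The authors' chip annotation is not stated in the labels, and no probe set coordinates were printed. RNA from 6 rats per group was pooled in equal amounts, per the labels' protocols.

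Of 29214 probe sets, 15310 had 1 gene symbol, 323 had several and 13581 were not listed. None of those with several symbols held an Slc25 gene. Entrez numbers were set against RefSeq (GRCr8, used for names and promoters), and 0 symbols needed an update. The members, their roles, the gene lists and the naming rule were chosen with earlier results of these data known. The rule named every carrier, members of lists with up to 6 genes, up to 3 extreme members of other lists, and 4 regulators; Cpt1b, Cpt2, Timm22, Timm10, Timm8a1, Timm8b, Tomm7, Vdac1, Gabpa, Tfam and the marker examples Acta1, Ckm and Des were named after their values were seen. Another 11 carriers of the role list, among them Slc25a12 and Slc25a13, had no probe set under the rule and were not analysed here, nor were protein sequences.

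With 1 array per group there was no test, and the number of arrays limits the precision. Differences of log2 values were counted at 1.5-fold and 1.2-fold, and counts were checked on simulated data. Alternatives covered the fold threshold, dim filter, centring, quantile normalization, loess (span 0.3), probe set averaging, means of members and equal values. Tools were matplotlib 3.10.9, statsmodels 0.14.6, scipy 1.17.1, pandas 2.3.3 and numpy 2.4.6 under Python 3.11.15.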

Additional observations from a re-analysis of the deposited data

How the results depend on the processing

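Of 72 recomputed values (counts and medians of the carriers in 3 comparisons), 61 stayed close to those reported. Close meant counts within 1.5 times, or medians within the 95% order-statistic interval over the members. That interval is a spread between genes and not between animals. Counts cannot change sign, and neither can the median of 0.00 for Plin5 minus empty vector. The medians for Plin2 minus empty vector and for Plin5 minus Plin2 kept their sign. At a threshold of 1.2-fold, 3 carriers were lower on the Plin5 array and 10 on the Plin2 array against the empty vector. On the Plin5 array 12 were higher than on the Plin2 array. The shares of all genes were 5.71%, 15.5% and 16.6% in the same order. At 2-fold, 0 carriers were higher and 1 lower on the Plin2 array against the empty vector, beside 272 and 142 of all 10879 genes. For Plin5 minus Plin2, 1 carrier was higher and 1 lower, beside 215 and 562 of all genes. After median-centring, 1 carrier was higher by 1.5-fold on the Plin2 array than on the empty vector array, beside 828 of all genes. On the Plin5 array 8 carriers were higher and 1 lower than on the Plin2 array, beside 1012 and 1032 of all genes. For Plin5 minus empty vector the mean over the members was −0.0049, where the median was 0.00. Centring moved the median of all genes by at most 0.09 in size. The cause was not tested. Slc25a20, Slc25a24, Slc25a34 and Slc25a42 kept their side of 1.5-fold against the empty vector on the Plin2 array in every normalization and filter tried, except that Slc25a34 was left out by a dim filter at the median (7.34), whereas Slc25a5 and Slc25a23 did not. No paired analysis was possible because each group had 1 array. Signal over background could not be judged, since the table gives no detection values.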
